A study of Mus musculus with 3 samples.

Results

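Naive pluripotency is the state of the preimplantation epiblast and of mouse embryonic stem cells, in which a circuit of transcription factors holds differentiation back. The factors described here are the 10 genes Nanog, Klf2, Klf4, Klf5, Esrrb, Zfp42, Tbx3, Tfcp2l1, Nr0b1 and Nr5a2, out of 18193 genes that the arrays could name. They were chosen with earlier results of these data known, and taken by symbol. Every probe set (a group of short probes that together read 1 transcript) assigned to just that symbol was read, 24 in all. The circuit is fed by LIF through Stat3 and by Wnt through relief of the repressor Tcf7l1, and FGF and ERK signals take it down as cells prepare to form the germ layers. In embryoid bodies, which are aggregates of stem cells left to differentiate in suspension, these genes are known to decline with time.

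The bodies came from mouse embryonic stem cells of strain 129S7/SvEv Brd-Hprt b-m2 and were collected on day 7. All 3 groups carried human BRCA1, a tumour suppressor of homologous recombination: the wild-type gene in WT, M1652I in MI, and R1699Q in RQ by the series design, where the array's own label reads R1669Q. How the human gene was introduced and what became of the mouse gene are not given in the sources used here. Each genotype was 1 array, so no difference below has a replicate check, none was tested, and culture, array and genotype cannot be told apart.

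The 3 arrays had mean log2 signals of 6.60 each and medians between 6.28 and 6.35, and their small number limits the precision. The spread over probe sets was narrower on MI (SD 1.06) than on WT and RQ (both 1.17). Genes of high signal were generally lower on MI than on WT, so the MI differences of the factors are given as deposited and again after a lowess correction, and those of other genes mostly after it alone. The correction subtracts the running trend of the difference at that signal level. The 18 spike-in control probe sets were lower than in WT, with median differences of -0.64 in RQ (-1.38 to -0.42) and -0.80 in MI (-1.48 to -0.36). The arrays thus differed for control signals too, and the bearing of this on the factors was not tested. A gene was read where the higher of the arrays compared reached log2 6.31, the median of all probe sets.

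Promoter sequence from RefSeq (mouse build GRCm38.p6, from strain C57BL/6J) was available for 8 of the 10 genes. Tbx3 and Klf5 were not in that table. The 250 bases before the annotated start are shown for the 4 genes with the largest differences between RQ and WT, and for Tfcp2l1, whose signal differed least. They run 5′ to 3′ on the gene's strand, and capitals mark, on either strand, the letters TTGCAT (read by the octamer factor Pou5f1), ACAATG (Sox2), AAGGTCA (Esrrb and Nr5a2), CCACCC and GGGCGG (Klf and Sp factors), TTCCNGGAA (Stat3) and TATAAA (the TATA box).
Zfp42: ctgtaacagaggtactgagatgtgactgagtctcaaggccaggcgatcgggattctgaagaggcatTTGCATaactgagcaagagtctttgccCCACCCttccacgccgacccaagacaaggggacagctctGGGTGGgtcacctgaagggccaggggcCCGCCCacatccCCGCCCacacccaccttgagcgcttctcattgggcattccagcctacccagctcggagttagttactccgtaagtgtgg
Nr0b1: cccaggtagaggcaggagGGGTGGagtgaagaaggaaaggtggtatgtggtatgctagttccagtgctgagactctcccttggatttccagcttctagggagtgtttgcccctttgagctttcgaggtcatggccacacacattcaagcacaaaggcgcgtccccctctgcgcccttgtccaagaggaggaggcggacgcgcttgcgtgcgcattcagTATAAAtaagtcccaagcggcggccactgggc
Klf2: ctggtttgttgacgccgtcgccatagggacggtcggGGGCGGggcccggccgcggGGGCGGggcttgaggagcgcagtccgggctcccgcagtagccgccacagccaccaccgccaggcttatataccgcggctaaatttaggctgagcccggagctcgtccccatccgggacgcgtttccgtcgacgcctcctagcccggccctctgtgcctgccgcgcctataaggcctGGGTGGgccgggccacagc
Nanog: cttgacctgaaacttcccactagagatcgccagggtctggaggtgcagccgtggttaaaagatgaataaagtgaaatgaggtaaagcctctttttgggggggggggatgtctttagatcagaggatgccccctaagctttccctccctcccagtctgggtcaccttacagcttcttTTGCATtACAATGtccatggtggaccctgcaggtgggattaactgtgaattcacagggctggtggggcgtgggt
Tfcp2l1: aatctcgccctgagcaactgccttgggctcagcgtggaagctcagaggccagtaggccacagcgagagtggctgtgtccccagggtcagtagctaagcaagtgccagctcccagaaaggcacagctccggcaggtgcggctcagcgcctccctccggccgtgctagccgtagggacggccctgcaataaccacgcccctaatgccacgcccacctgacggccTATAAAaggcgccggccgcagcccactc

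The windows lie at chr8:43307010-43307259 on the minus strand for Zfp42, and on the plus strand at chrX:86191525-86191774 for Nr0b1, chr8:72318812-72319061 for Klf2, chr6:122707239-122707488 for Nanog and chr1:118627695-118627944 for Tfcp2l1. In Nanog, TTGCAT at 74 to 69 bases before the start was followed after 1 base by ACAATG. This is the order of letters known from sites that Pou5f1 and Sox2 share. Another Nanog window, not shown, held the same TTGCAT at 150 to 145 bases before its own start, and CCACCC at 50 to 45. Zfp42 held TTGCAT at 184 to 179 bases before its start, with 2 CCACCC and 2 GGGCGG matches closer to it. Klf2 held 2 GGGCGG and 1 CCACCC match in a window of 71.2% G and C, against a median of 52.4% over 32851 such windows. Nr0b1 and Tfcp2l1 each held TATAAA within 32 bases of the start, although their signals differed unlike each other in RQ. None of the 11 windows of these genes held AAGGTCA or TTCCNGGAA, which were in 4.08% and 0.913% of all windows. The shares over all windows were 9.45% for TTGCAT, 10.7% for ACAATG, 28.1% for CCACCC, 32.7% for GGGCGG and 12.4% for TATAAA. Overlapping matches were each counted, and a match describes letters, not binding.

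The RQ array read higher than WT for every one of the 10 factors. At each gene's strongest probe set (highest mean signal of the 3 arrays), 7 of 10 exceeded WT by 2-fold or more in RQ and 0 were 2-fold lower, against 1.68% of 12226 genes read that were as much higher and 1.49% that were as much lower. The median difference of the 10 was 1.42 on the log2 scale, against 0.01 over all genes read. As the 10 were chosen with earlier results of these data known, the contrast with all genes is a description only. All 10 were read, but Nr0b1 passed the level filter through RQ alone and so had to be higher there. In MI, 2 of 9 factors read exceeded WT by 2-fold or more and 0 were lower by as much, against 0.516% and 2.44% of 12786 genes. After the level correction 3 of 9 were higher and 0 lower, against 0.657% and 1.62%. The median in MI was 0.53 both before and after the correction, against 0.06 and 0.02 over all genes. Nr5a2, which the correction hardly moved, was the middle gene both times, while other factors moved more. Over all 10 factors without the level filter, the MI median was 0.36 as deposited and 0.50 corrected. RQ was the highest array for 10 of 10 factors and for 29.9% of 12971 genes read on any array. The order WT, MI, RQ from low to high was seen for 6 of 10, against 15.0% of those genes. Both statements hold for the deposited values: after the level correction RQ was above MI for 8 of 10, with Klf4 at -0.23 and Esrrb at -0.18. Both mutants are set against the same WT array, so the differences are not independent of each other, and in bulk bodies more stem cells and more RNA of a factor per cell cannot be told apart.

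**Figure D1:**
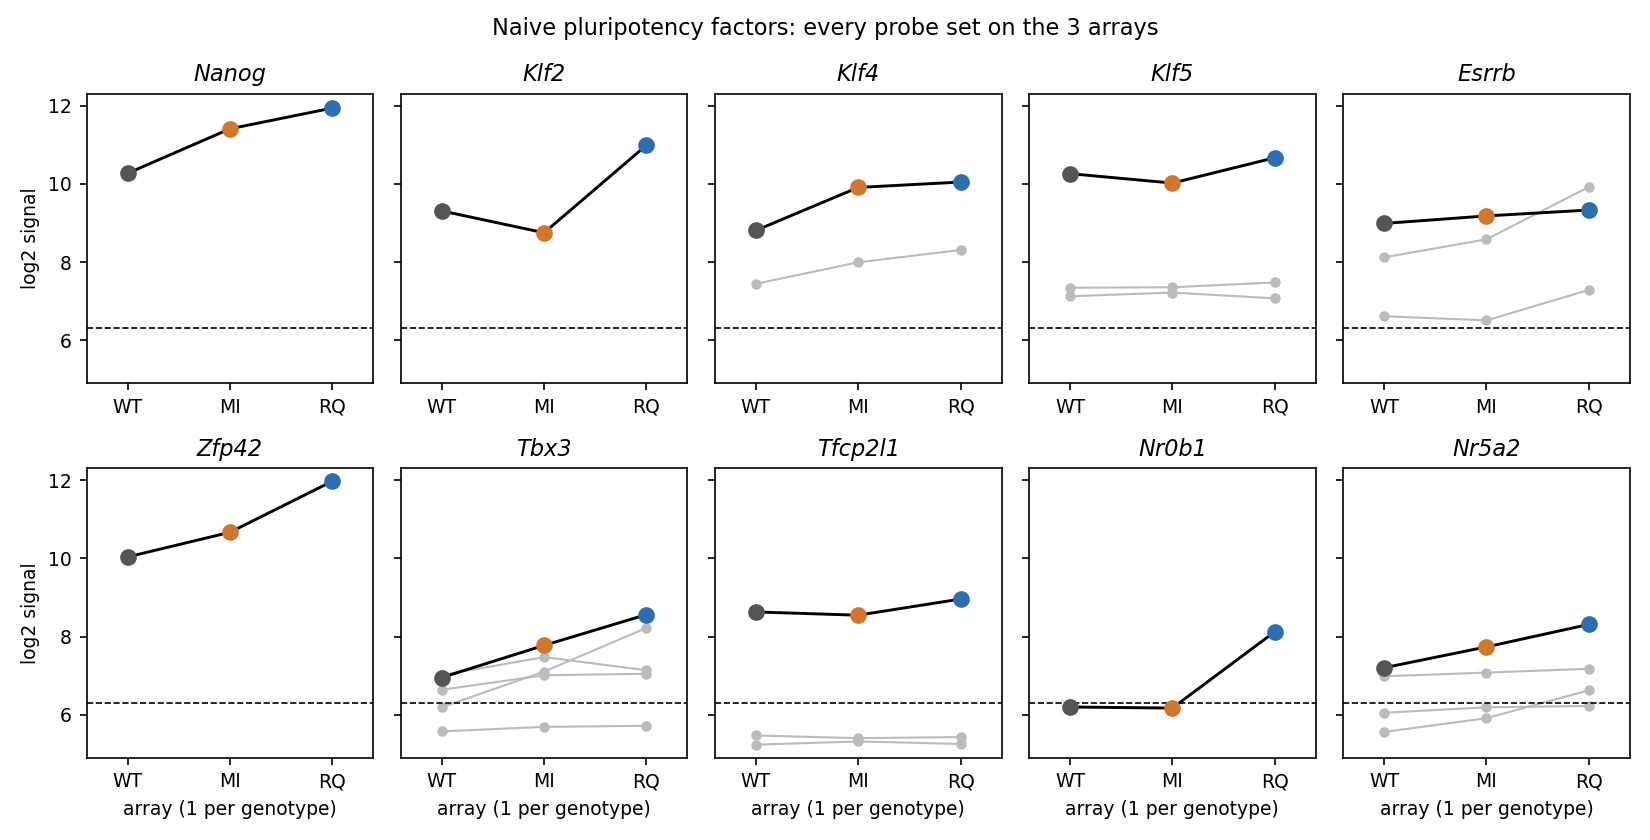
Log2 signal (y axis) of every probe set of the 10 factors on the WT, MI and RQ arrays (x axis). Large coloured points joined in black are the strongest probe set, grey points are the gene's other probe sets, and the dashed line is the level filter at 6.31. RQ is the highest coloured point in all 10 panels, while Esrrb, Tbx3 and Nr5a2 have grey probe sets of another size of difference.

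Nanog, the homeodomain factor that stabilises self-renewal, has 1 probe set, which read 10.27 on WT, 11.41 on MI and 11.94 on RQ. Both mutant arrays were above WT, by 3.18-fold in RQ and 2.20-fold in MI. After correction the MI difference was 1.57 on the log2 scale, close to the 1.67 of RQ, because the trend at this signal level was -0.44. Zfp42 (Rex1), a zinc finger protein used as a marker of the naive state, read 10.04 on WT, 10.67 on MI and 11.97 on RQ. Its RQ value was 3.82-fold above WT, rank 12 from the top of the genes read, and its MI value 1.55-fold. The MI difference went from 0.63 to 1.03 with the correction and so passed 2-fold only there. The 2 genes thus stood in the same order on the arrays, with MI nearer to RQ for Nanog than for Zfp42.

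The Krüppel-like factors Klf2, Klf4 and Klf5 bind similar GC-rich sites and are known to stand in for one another in stem cells, yet they had unlike patterns. Klf2, whose protein ERK2 is known to mark for degradation, read 9.31 on WT, 8.75 on MI and 10.99 on RQ. It was 3.20-fold above WT in RQ, whereas MI lay below WT by a log2 difference of -0.56, or -0.29 after correction. Klf4, a target of Stat3, read 8.81, 9.91 and 10.05 in that order of arrays. Both mutants were above WT by similar amounts, 2.36-fold in RQ and 2.14-fold in MI. Its second probe set differed by 0.86 in RQ and 0.55 in MI, short of 2-fold, and with the mean of both the MI difference was 0.82. Klf5, which also acts in trophectoderm and gut epithelium, read 10.26, 10.02 and 10.67. Its RQ difference was 0.41, and its other 2 probe sets differed by 0.14 and -0.05, so no probe set of Klf5 stood 2-fold apart. The MI difference of Klf5 was -0.24 as deposited and 0.15 corrected, and thus changed sign.

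The other 12 Klf genes on the arrays, a list set for comparison, had a median RQ difference of 0.18, and 1 of them was at least 2-fold higher. That gene was Klf9 (8.48 on WT, 8.96 on MI and 10.62 on RQ), at a difference of 2.14 that was 1.09 with the mean of its 7 probe sets. Klf13 differed by 0.94, Klf10 by 0.87 and Klf6 by -0.82 in RQ, and of these Klf13 was at 0.48 and Klf6 at -0.25 with means of probe sets. In MI none of the 12 reached 2-fold, with corrected differences of 0.70 for Klf9, -0.62 for Klf6, -0.48 for Klf16 and 0.41 for Klf3.

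Esrrb, Nr0b1 and Nr5a2 are orphan nuclear receptors. Esrrb is a main target of relief from Tcf7l1, Nr5a2 (LRH-1) activates Pou5f1 and can read sites like those of Esrrb, and Nr0b1 (DAX-1) lacks a classical DNA-binding domain and acts as a corepressor. Nr0b1 had 1 probe set and read 6.20 on WT, 6.18 on MI and 8.12 on RQ. It stood above the level filter in RQ alone, with a log2 difference of 1.92 from WT. As WT and MI lay below the filter, this difference may understate the true one, and no MI difference was read.

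Esrrb depended on the probe set. The one with the highest mean, which is marked as able to match several transcripts, read 8.99 on WT, 9.18 on MI and 9.33 on RQ, a difference of 0.34 in RQ. Another read 8.12, 8.58 and 9.92, which is 3.48-fold above WT in RQ, and the weakest read 6.62, 6.51 and 7.29. All 3 had RQ as the highest array, but only the middle one was past 2-fold. If probe sets that can match several transcripts are left out, Esrrb joins the factors past 2-fold in RQ, at 1.80. The count is then 8 of 10, against 1.82% of all genes read.

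Nr5a2 read 7.21 on WT, 7.74 on MI and 8.31 on RQ at its strongest probe set, which is 2.15-fold above WT in RQ and 1.45-fold in MI. Of its other 3 probe sets, 1 differed by 1.06 in RQ, but it passed the filter in RQ alone (6.63) and gives no firm ratio. The others differed by 0.19 and, below the filter on every array, by 0.17. With the mean of all Nr5a2 probe sets the RQ difference was 0.63, and after quantile normalization again it was 0.99. The call of 2-fold was thus lost under both. The correction left its MI difference at 0.53.

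Tbx3, a T-box factor that is downstream of PI3K signalling in stem cells and also acts in endoderm, read 6.96 on WT, 7.78 on MI and 8.56 on RQ. Its RQ signal was 3.05-fold above WT and its MI signal 1.77-fold. A second probe set, marked as able to match several transcripts, read 6.20 on WT, which is below the filter, 7.11 on MI and 8.22 on RQ, and gives no firm ratio. The other 3 differed by 0.12 to 0.41 in RQ, and that at 0.14 lay below the filter on every array. The probe set at 0.12 read 7.02 on WT, 7.48 on MI and 7.14 on RQ, and so was highest in MI. With the mean of all 5 the difference in RQ was 0.86, short of 2-fold.

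Tfcp2l1, a grainyhead-like factor that acts downstream of LIF and Wnt, read 8.63 on WT, 8.55 on MI and 8.96 on RQ. The difference in RQ was 0.33, the smallest of the 10, and in MI it was -0.08 as deposited and 0.13 corrected. Its other 2 probe sets lay below the filter on each array. Genes related by sequence to the receptors, Tfcp2l1, Tbx3 and Zfp42 had a median RQ difference of -0.19 over the 7 of 10 that were read, and none reached 2-fold. Yy1, the ubiquitous relative of Zfp42, differed by -0.54 in RQ and 0.29 in MI (0.65 corrected), Esrrg by -0.19 and -0.09 (-0.17), Nr0b2 by -0.23 and 0.01 (0.09), Ubp1 by -0.23 and -0.62 (-0.45) and Tbx5 by 0.02 and 0.34 (0.27). With the mean of its probe sets Yy1 was at -0.03 in RQ.

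**Figure D2:**
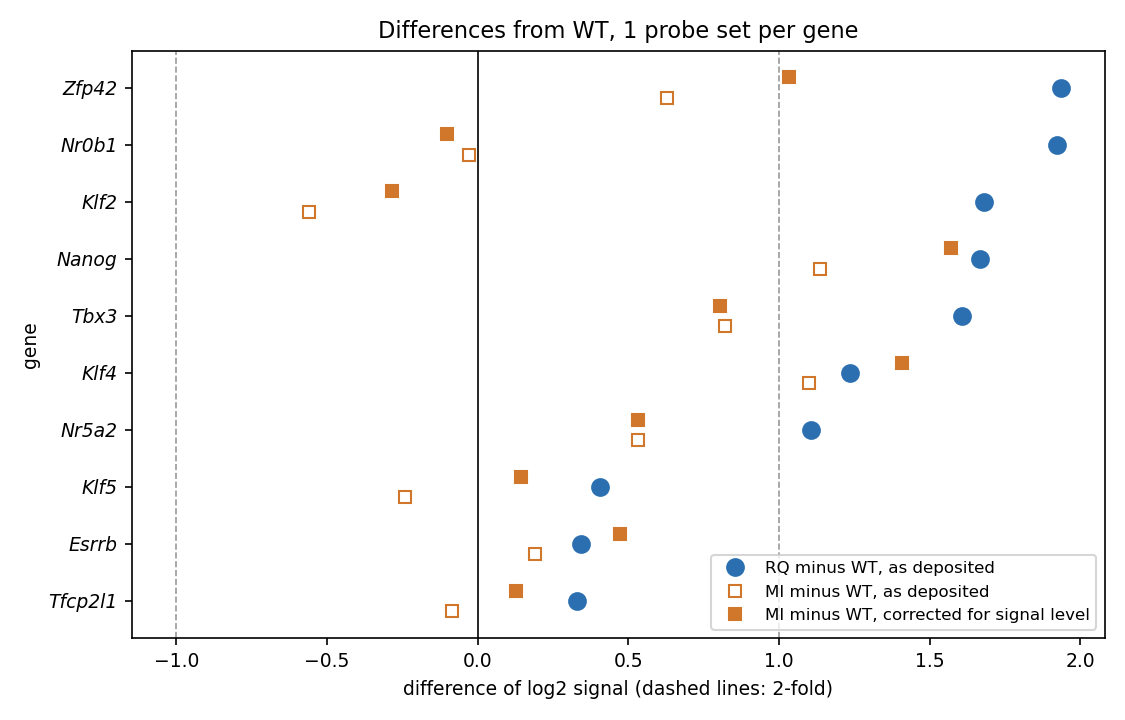
Difference of log2 signal from WT (x axis) for the 10 factors (y axis, ordered by the RQ difference), at 1 probe set per gene. Blue circles are RQ, open squares are MI as deposited and filled squares are MI corrected for signal level. Klf2 has MI values below 0 beside an RQ value of 1.68, and the MI points of Nr0b1 come from signals below the level filter, whereas the values of Klf4 and Nanog in MI approach those in RQ.

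Over all 24 probe sets of the 10 genes, 22 were above 0 and 2 below for RQ against WT, and 18 above and 6 below for MI against WT. Of all genes read, at their strongest probe sets, 51.7% were above 0 for RQ and 59.5% for MI as deposited. The 24 include 4 probe sets that lay below the level filter on every array. Several probe sets were present for 6 of the genes, and these share a gene and are not replicates. The 4 genes with 1 probe set, Nanog, Klf2, Zfp42 and Nr0b1, are among the 7 past 2-fold and have no second reading on these arrays.

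The mutants were also set against each other. In RQ minus MI, 3 of 10 factors stood 2-fold or more above and 0 below, against 1.98% and 0.508% of 12800 genes. These were Klf2 (4.72-fold), Zfp42 (2.47-fold) and Nr0b1, which lay below the level filter on MI, was read through RQ alone and so gives no firm ratio (6.18 on MI, 8.12 on RQ). After the correction Zfp42 was at 0.91 and 2 of 10 were left past 2-fold, Klf2 at 1.88 and, with the same limit, Nr0b1, against 1.02% of genes. Among the 12800 genes as deposited Klf2 had rank 4 from the top. Nanog (0.53 as deposited, 0.13 corrected) and Klf4 (0.14 and -0.23) were close between the mutants. The middle probe set of Esrrb was at 1.34 and 1.01, while the one with the highest mean was at 0.15 and -0.18. At the strongest probe sets, 7 factors were past 2-fold in RQ against WT. Of these, Nanog and Klf4 thus read high in both mutants, Klf2 and Nr0b1 in RQ alone, and Zfp42, Tbx3 and Nr5a2 lay between. Klf5, Esrrb and Tfcp2l1 were short of 2-fold in both at their strongest probe sets.

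**Figure D3:**
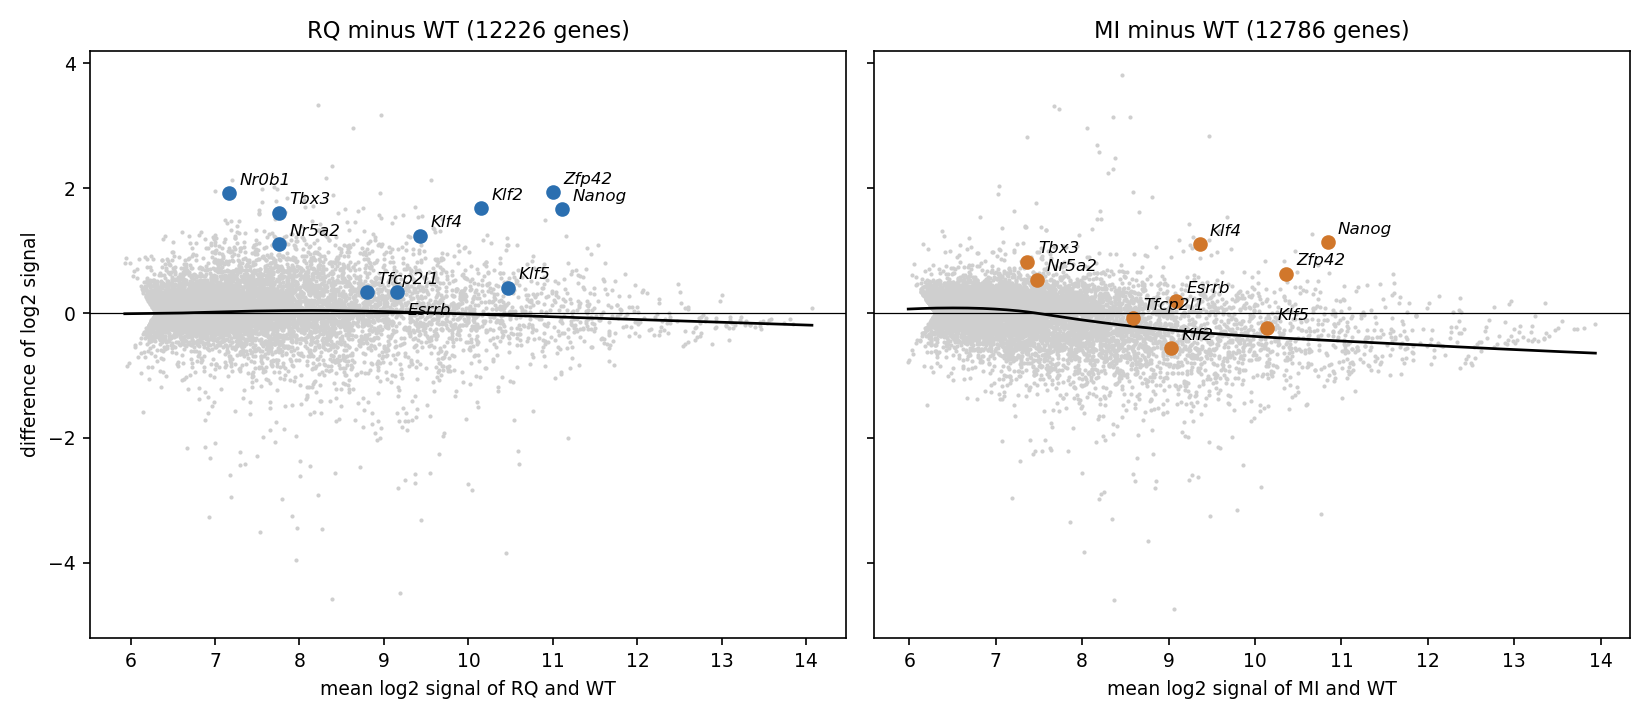
Difference of log2 signal from WT (y axis) against the mean log2 signal of the 2 arrays (x axis) for RQ (left, 12226 genes) and MI (right, 12786 genes). Grey points are all genes read, coloured points are the factors, and the black line is the lowess trend. The trend stays near 0 for RQ and falls below 0 at high signal for MI, where it was -0.44 for Nanog and -0.39 for Klf5.

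Other genes of the naive circuit followed in part. Of 19 partners read, 7 were at least 2-fold higher in RQ and 0 lower, with 16 above 0 and a median difference of 0.71. Dppa2, a chromatin factor of early embryonic cells, read 7.38 on WT, 9.02 on MI and 10.55 on RQ. L1td1, which binds RNA in pluripotent cells, read 7.15, 8.20 and 10.12, the adhesion gene Jam2 read 6.74, 7.29 and 8.72, and Tet2, which oxidises methylated cytosine, read 6.97, 6.84 and 8.57. With the mean of its 5 probe sets Jam2 was at 1.004. In MI as deposited 4 partners were at least 2-fold higher and 3 lower, and after correction 4 and 1. Dppa3 (Stella), a maternal and germ cell protein, read 7.88 on WT, 9.74 on MI and 8.58 on RQ and was thus highest in MI. Fbxo15 was higher in both mutants (8.93, 10.24 and 10.43), and Utf1 was lower in MI alone (10.53, 8.97 and 10.44), by a corrected -1.21, and by -0.61 as deposited with the mean of its probe sets. The core factors Pou5f1 and Sox2, added to the text with their values known, were not alike. Pou5f1 read 11.39, 10.21 and 11.25, a difference from WT of only -0.14 in RQ and of -1.17 in MI (-0.74 corrected). Sox2 read 10.54, 10.32 and 11.77 and is among the 7 partners past 2-fold in RQ.

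The inputs to the circuit differed less. None of 7 genes of the LIF and Stat3 input was 2-fold apart from WT in RQ (median -0.20), with Pim3 at -0.97, Stat3 itself at -0.81, the kinase Jak1 at 0.66 and the coreceptor Il6st at 0.42. In MI the feedback inhibitor Socs3, a direct Stat3 target, was 2-fold higher (8.67 on WT, 9.89 on MI and 8.47 on RQ; corrected difference 1.53), and Pim3 was 2-fold lower as deposited (-1.02) but not after correction (-0.78), beside corrected differences of -0.65 for Lifr and 0.46 for Jak1. Klf4, the factor that Stat3 is known to feed most directly, was higher in both mutants, while Socs3 was higher in MI alone. Of 6 genes of the Wnt and GSK3 input, none was 2-fold apart in either mutant, and Tcf7l1 differed by 0.19 in RQ and -0.05 in MI (0.04 corrected). Ctnnb1, which encodes beta-catenin, differed by 0.36 and -0.03 (0.48), Lef1 by 0.16 and -0.09 (-0.16), Axin2 by 0.15 and 0.05 (-0.03) and Gsk3b by 0.09 and 0.00 (-0.07). Of 7 genes of the FGF and ERK input, 2 were at least 2-fold higher in RQ, with a median of 0.38. Etv5, an ETS factor that ERK signalling induces, read 7.997, 7.82 and 9.92, and Spry2, an ERK feedback inhibitor, read 7.38, 8.20 and 8.54, at 0.70 in RQ with the mean of its probe sets. Dusp6 differed by 0.61, Spry4 by 0.38 and Etv4 by 0.20 in RQ. In MI the corrected differences were 0.89 for Spry2, 0.41 for Etv4, 0.22 for Spry4 and 0.21 for Dusp6. Etv5 was thus high in RQ alone, as Klf2 and Nr0b1 were.

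Genes of the exit from the naive state were not 2-fold apart in RQ (9 read, median -0.02). Dnmt3b, a DNA methyltransferase that comes up with the formative epiblast, read 9.03 on WT, 7.33 on MI and 8.25 on RQ, and Otx2, the homeodomain factor that drives the exit, read 7.35, 5.98 and 7.52. Both were at least 2-fold lower in MI, at corrected differences of -1.56 and -1.45, and these 2 were the only ones of 9 so called. Otx2 lay below the filter on MI, so it was read through WT alone, had to be lower in MI and gives no firm ratio. In RQ the largest differences were those of Dnmt3b (-0.78), Dnmt3a (0.75), Zic2 (0.55) and Flcn (-0.24), and in MI, beside the first 2, Flcn (-0.32) and Dnmt3a (-0.28) followed after correction.

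**Figure D4:**
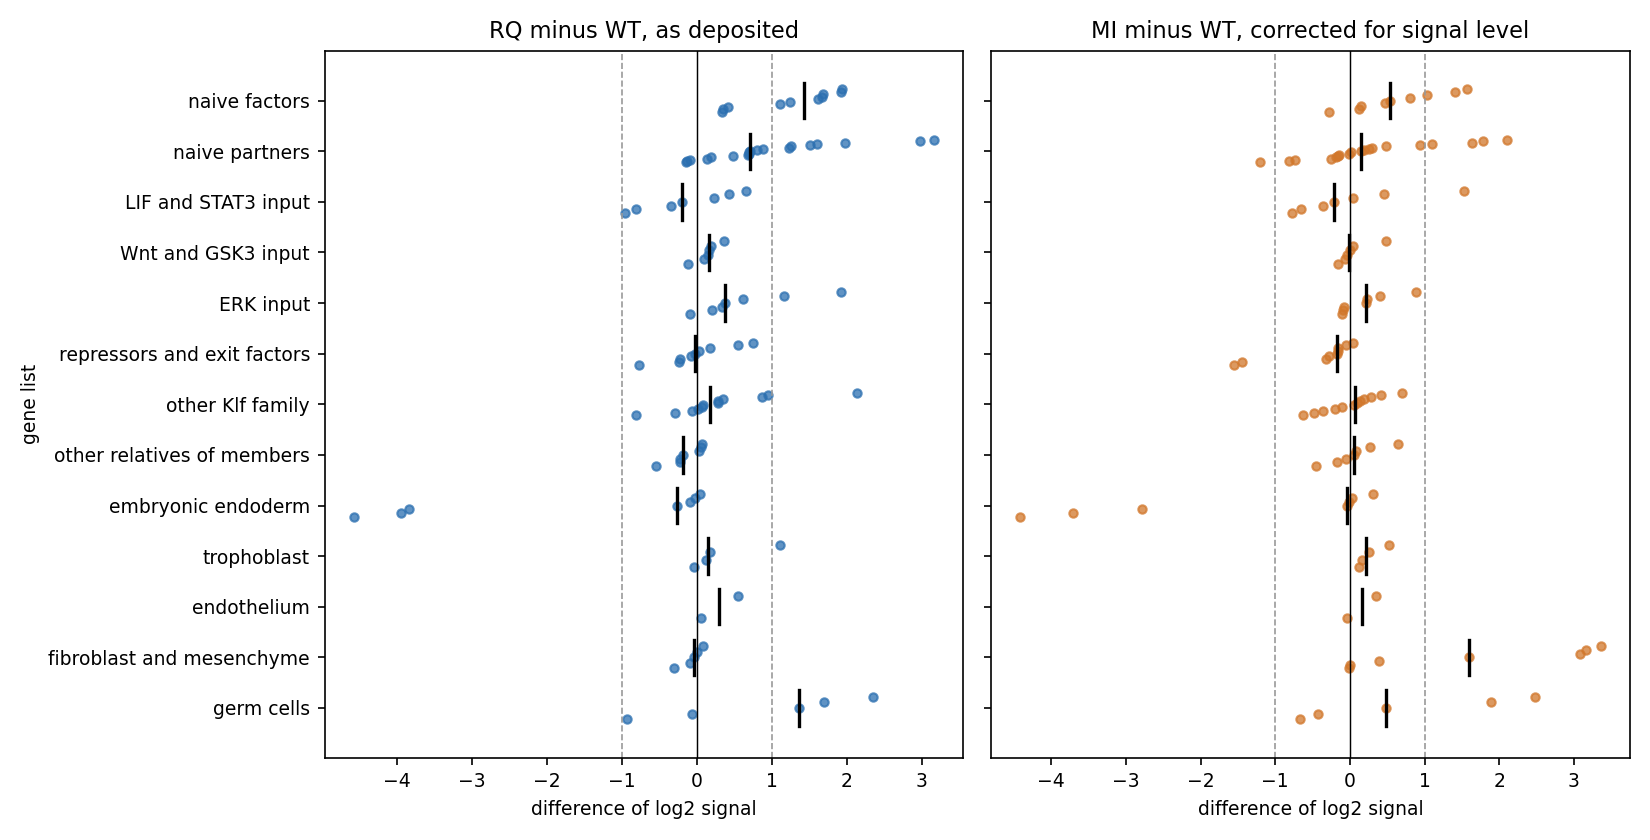
Difference of log2 signal from WT (x axis) for the genes read in each list (y axis), for RQ as deposited (left) and MI corrected for signal level (right). Points are genes, black bars are list medians and dashed lines mark 2-fold. The median of the 10 factors is 1.42 in RQ. There the germ cell and partner lists have medians of 1.36 and 0.71, and the LIF, Wnt and exit lists -0.20, 0.15 and -0.02.

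Several factors are also made by cell types other than stem cells, so markers of these were read as lists. In the endoderm list, whose tissue can express Nr5a2, Klf5 and Tbx3, 3 of 7 genes read were at least 2-fold lower and 0 higher in each mutant, while those 3 factors read above WT in RQ at their strongest probe sets. The 3 were Cubn (10.67 on WT, 6.08 on MI and 6.09 on RQ), Lama1 (9.93, 6.11 and 5.98) and Sparc (12.37, 9.16 and 8.52). Cubn and Lama1 lay below the filter in both mutants, so they were read through WT alone and give no firm ratio. Sox17 differed by -0.26 in RQ, and Pdgfra by a corrected 0.31 in MI. With the mean of its probe sets Sox17 was at -0.84 in RQ and -0.73 in MI. The log2 of the list's summed signal was 13.07 on WT, 10.50 on MI and 10.16 on RQ, and 3 of 10 genes on the arrays, Gata4, Sox7 and Foxa2, lay below the filter on each array. Whether fewer endodermal cells beside more stem cells account for the differences of the factors was not tested.

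Fibroblasts, which include the feeder cells that were removed before the bodies were formed, can express Klf4. Of 7 fibroblast and mesenchyme genes read in MI, 4 exceeded WT by 2-fold or more, and none of 5 read in RQ was. S100a4 read 6.02 on WT, 9.33 on MI and 5.93 on RQ, Vim 8.05, 10.89 and 7.75, Dcn 6.57, 9.54 and 6.48, and Col1a2 6.39, 8.03 and 6.39. S100a4 passed the filter in MI alone and so had to be higher there. Col1a2 was at 0.69 and Dcn at 1.53 in MI with means of probe sets. The log2 of the summed signal over 8 genes was 9.67, 11.92 and 9.54 in that order of arrays, and Thy1 lay below the filter on each. Their part in the MI signal of Klf4 was not tested. Vim, Col3a1 and Postn differed from WT in RQ by -0.30, 0.08 and -0.04.

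Klf2 and Klf4 also act in endothelium, of whose 6 markers 2 were read and none reached 2-fold. Pecam1, which stem cells express too, differed by 0.54 in RQ and 0.43 in MI (0.35 corrected), and Emcn by 0.05 and 0.05 (-0.04). Kdr, Cdh5, Tek and Tie1 lay below the filter on each array. The summed signal was 8.64 on WT, 8.81 on MI and 8.78 on RQ on the log2 scale. Trophoblast can express Klf5, Esrrb and Tbx3, and of 4 of its genes read 1 was at least 2-fold higher in RQ. That was Tfap2c (8.39, 8.71 and 9.49), which germ cells make as well, while Eomes differed by 0.18, Hand1 by 0.11 and Gata3 by -0.04 in RQ. The defining genes Cdx2 and Elf5, and Ascl2, were below the filter on every array, and the log2 of the summed signal was 9.78, 9.996 and 10.32. In MI the corrected differences were 0.53 for Tfap2c, 0.26 for Hand1, 0.17 for Gata3 and 0.12 for Eomes.

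Germ cells express Nanog and Zfp42. Of 5 germ cell genes read, 3 were at least 2-fold higher in RQ and 2 in MI, with 0 lower. The median RQ difference of the 5 was 1.36. Tex19.1 read 7.21 on WT, 9.51 on MI and 9.56 on RQ, Dazl 8.90, 10.45 and 10.26, and Stra8 7.22, 7.70 and 8.91, whereas Sycp3 read 9.19, 8.51 and 8.25. Tex19.1 and Dazl are also made by stem cells. Ddx4, a defining germ cell gene, read 6.91, 6.33 and 6.85, and Prdm1 lay below the filter on each array. The log2 of the summed signal of the list was 10.59 on WT, 11.47 on MI and 11.52 on RQ, and its part in the signals of Nanog and Zfp42 was not tested.

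Genes with the most similar pattern were sought by the distance of their differences from the median pair of the 9 factors read in both mutants, 1.24 in RQ and a corrected 0.53 in MI. Of 12041 genes read in both, the nearest 6 were Psmd7, Ddias, Pnp, Nlk, Cstf2t and Etaa1, at distances of 0.03 to 0.06 over 3 arrays. Psmd7, a proteasome subunit, read 7.42 on WT, 7.93 on MI and 8.64 on RQ, and Pnp, a purine salvage enzyme, read 7.68, 8.14 and 8.93. Among the factors Nr5a2 lay nearest to that point, at 0.13, and Nanog farthest, at 1.12. With means of probe sets the RQ difference was 0.21 for Psmd7, 0.85 for Ddias, 0.71 for Nlk and 0.62 for Etaa1.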

How the data were processed

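RNA of day 7 embryoid bodies was labelled from 6 ug per sample and read on Affymetrix arrays, 1 per genotype, per the labels' protocols. The authors deposited log2 signals for 45101 probe sets. The submitters' processing notes list Partek and RMA, with no version or order of steps. Scanner files and detection calls were not used here.

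The platform annotation gave the names: 34958 probe sets had 1 symbol, 932 several and 9211 none listed. Without controls, 34945 probe sets of 18193 genes were left. RefSeq names matched 34741 of them by gene identifier and changed 0 symbols. No build is named for the arrays, and the promoter coordinates are those of RefSeq's table.

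From these values, differences of log2 signals were computed in Python 3.11.15. A gene's value is its strongest probe set by mean signal of the 3 arrays, and a gene was read at log2 6.31 or above on the higher array. The lowess trend (statsmodels 0.14.6, span 0.3, 3 iterations) was fitted over all named probe sets. Counting and correction were tested on simulated data. With 1 array per genotype no test was possible. The members, the lists and the rules were chosen with earlier results of these data known. All 10 members are named. From each list the text names up to 4 genes with the largest difference in RQ and up to 4 in corrected MI, and others where a count or marker needs them. The 6 nearest genes are named too. Alternatives were scaling, level filter, probe set choice and fold limit.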

Additional observations from a re-analysis of the deposited data

How the results depend on the processing

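RQ read higher than WT for all 10 factors under each scaling and each choice of probe sets tried (per-array median centring, quantile normalization again, lowess, means of probe sets, and probe sets of several transcripts left out). The number at least 2-fold higher was 5 to 8 over these and the other level filters, with a median difference of 0.99 to 1.64. Of all genes read, 0.986% (means of probe sets) to 2.81% (75th percentile filter) were as much higher. At a 3-fold limit the number was 5, where 0.278% of all genes read were as much higher. For MI against WT the count of 2 was 1 with means of probe sets, where 0.43% of all genes read were as much higher. These means gave a median of 0.28. At a 1.5-fold limit the count was 4 (1.92% of all genes), and at a 3-fold limit 0 (0.164%). For RQ against MI the count of 3 was 5 at a 1.5-fold limit, where 9.54% of all genes were as much higher, and the median of 0.61 was 0.31 after quantile normalization again and 0.33 after lowess. For means of probe sets, weaker probe sets enter by construction, and the causes of the other changes were not tested. RQ minus MI turned below 0 for Klf4 (-0.23 and -0.24) and Esrrb (-0.18 and -0.27) after lowess and after quantile normalization again. Of 150 single differences of the factors under these alternatives, 140 stayed on their side of 2-fold, 6 fell short of it and 4 passed it. None past 2-fold changed sign. Part of the 140 could not move. For the 4 genes with 1 probe set, both other choices of probe sets return the same value. For Klf4, Tbx3, Tfcp2l1 and Nr5a2, leaving out probe sets of several transcripts does so too. No paired analysis was possible because each genotype is 1 array. With 1 array, signals near the filter, such as those of Nr0b1 in WT and MI, give no firm ratio.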
